A study of Bos taurus with 28 samples.

Results

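Solute carriers are the membrane proteins that move amino acids, sugars, ions, metals, nucleotide sugars and small organic acids into and out of cells and organelles. The set described here is every gene on the array whose platform symbol starts with SLC followed by a digit, read from probe sets with exactly 1 symbol, leaving out SLC2A1, SLC35A2, SLC27A6 and the SLCO symbols. It held 176 of the 9155 genes with a symbol, measured by 248 of 24016 probe sets, and 50 of the 176 genes had more than 1 probe set. By substrate, 24 were amino acid carriers, 15 sugar carriers, 23 ion carriers, 21 carriers of zinc and other metals, 15 members of the SLC35 (nucleotide sugar) family, 27 members of the SLC25 (mitochondrial) family and 49 carriers of other organic substrates. The last 2, SLC4A1AP and SLC7A6OS, carry an SLC symbol but name no carrier. All 176 were tested and none was dropped for low signal.

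The samples were mammary biopsies of 28 Holstein-Friesian cows in mid-lactation on a control diet, 1 Affymetrix Bovine Genome Array per cow. The question was how gene expression differs with the lysine or alanine variant of DGAT1, the enzyme that adds the last fatty acid in triglyceride synthesis. The AA group (11 cows, A232A in the labels) carried alanine on both alleles, the KA group (13 cows, A232K) lysine and alanine, and the KK group (4 cows, K232K) lysine on both. The variants were inherited, not edited, the labels used here give no ages or sires, and cows of different genotype can differ elsewhere in the genome.

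A lactating alveolar cell takes up amino acids, glucose, phosphate, calcium and trace metals through its basal membrane, makes casein, lactose and fat from them, and loads the Golgi with nucleotide sugars for lactose and glycoprotein synthesis. Carriers do most of this work. SLC7A5 with its heavy chain SLC3A2 takes up large neutral amino acids, SLC34A2 is the sodium phosphate carrier of the apical membrane, SLC30A2 moves zinc into secretory vesicles, and SLC25A1 passes citrate out of mitochondria. A biopsy also holds stroma, fat, vessels and blood cells, so fewer cells of a type and less RNA per cell cannot be told apart.

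The deposited values are log2 values from which a baseline had been taken away for each probe set, so 0 marks the baseline, 1 unit is a 2-fold difference, and the level of one gene cannot be set against that of another. The rounding of the deposited values still separates 3 coarse brightness classes. Of the 176 genes 30 were bright, 114 intermediate and 32 dim (18.2% dim, against 13.3% of all genes), and a dim probe set may hold little but background. The dim share was 6 of 24 in the amino acid class, 24.5% among other organic carriers and 21.7% in the ion class, and 6.7% in both the sugar class and the SLC35 family.

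Among the 28 arrays those of cows AA 2 and AA 9 lay far from the rest. Their SD over the 176 genes was 0.86 and 0.88, against 0.19 to 0.46 elsewhere, and the mean of 10 secretory epithelium markers was -1.26 and -1.99 against -0.25 to 0.17. Means of 7 fibroblast markers were 1.43 and 1.93 against -0.62 to 0.54. Those of 6 myoepithelium and smooth muscle markers were 0.60 and 1.45 against -0.63 to 0.79. Means of 4 adipocyte markers were -1.40 and -2.03 against -0.53 to 0.26, and those of 5 T cell markers 0.66 and 0.90 against -0.45 to 0.66. B and plasma cell means (0.35 and 0.21) and myeloid means (0.45 and 0.61) lay inside the range of the others. Endothelium means were -0.30 and 0.27 against -0.18 to 0.47, and red blood cell means -0.05 and -0.38 against -0.20 to 0.29. For the GAPDH control the 3′ minus 5′ difference read 1.33 for AA 2, -0.66 for AA 9 and -0.59 to 0.97 for the others. For the actin control it read -0.14 for AA 2 and -0.21 for AA 9, inside the -0.28 to 0.46 of the others. Results are therefore given with and without AA 2 and AA 9, and in values by genotype "the 9 other AA cows" are the rest of the AA group. The arrays are numbered 29 to 56 in their titles. The lower numbers (29 to 42) hold 8 AA, 2 KA and 4 KK cows and the upper numbers (43 to 56) hold 3 AA, 11 KA and no KK cow. What the number stands for is not given. KK cows can thus be set against others only within the lower numbers, where they meet 8 AA but only 2 KA cows. Values with lower or upper number as a block are given where they move a result.

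No SLC gene passed an adjusted p of 0.05 (limma, Benjamini-Hochberg over 24016 probe sets) in any of the 4 comparisons, and neither did any of the 9155 genes, so percent called was 0 throughout. The smallest adjusted p among the 176 was 0.121 for KA minus AA (SLC38A2), 0.526 for the slope per lysine allele, 0.909 for KK minus AA and 1.000 for KK minus KA. Without AA 2 and AA 9 still none passed.

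At an unadjusted p under 0.05, KA against AA gave 27 of the 176 SLC genes higher and 11 lower in KA, beside 10.1% and 11.4% of all genes. The slope per lysine allele gave 12 higher and 6 lower, beside 4.28% and 5.25% of all genes. KK against AA gave 4 higher (SLC30A2, SLC12A1, SLC11A1 and SLC34A1) and 1 lower (SLC27A5), beside 1.82% and 1.85% of all genes. KK against KA gave 1 higher (SLC38A2) and 4 lower (SLC25A40, SLC39A1, SLC27A5 and SLC16A13), beside 1.14% and 1.27%. After each array was centred on its median the KK against KA split was 2 higher and 4 lower, beside 102 and 126 of the 9155 genes. With quantile-normalized arrays it was 3 and 7, beside 261 and 265. Once AA 2 and AA 9 were left out, the counts were 9 higher and 4 lower for KA against AA (4.90% and 3.62% of all genes), 3 and 2 for the slope (1.64% and 1.57%), 3 and 2 for KK against AA (1.54% and 1.20%) and 3 and 7 for KK against KA (2.79% and 2.88%). With the array number block KK against KA gave 3 higher and 2 lower, beside 1.76% and 1.28% of all genes, and with the block and without AA 2 and AA 9 it gave 5 higher and 1 lower, beside 2.08% and 2.69%. That split turned, but it rests on few genes. When the 2 arrays were left out, the count of SLC genes higher in KA than in AA fell from 27 to 9. The share of all genes higher in KA fell from 10.1% to 4.90%.

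With all arrays the median SLC difference was 0.07 log2 for KA minus AA, with 68.2% of the 176 higher in KA against 50.8% of all genes, and 0.04 for KK minus AA, with 63.1% higher against 49.1%. Without AA 2 and AA 9 the medians were 0.02 and 0.00, with 61.4% and 51.7% higher against 53.3% and 52.5% of all genes. KA minus AA and KK minus AA share the AA cows.

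**Figure D1:**
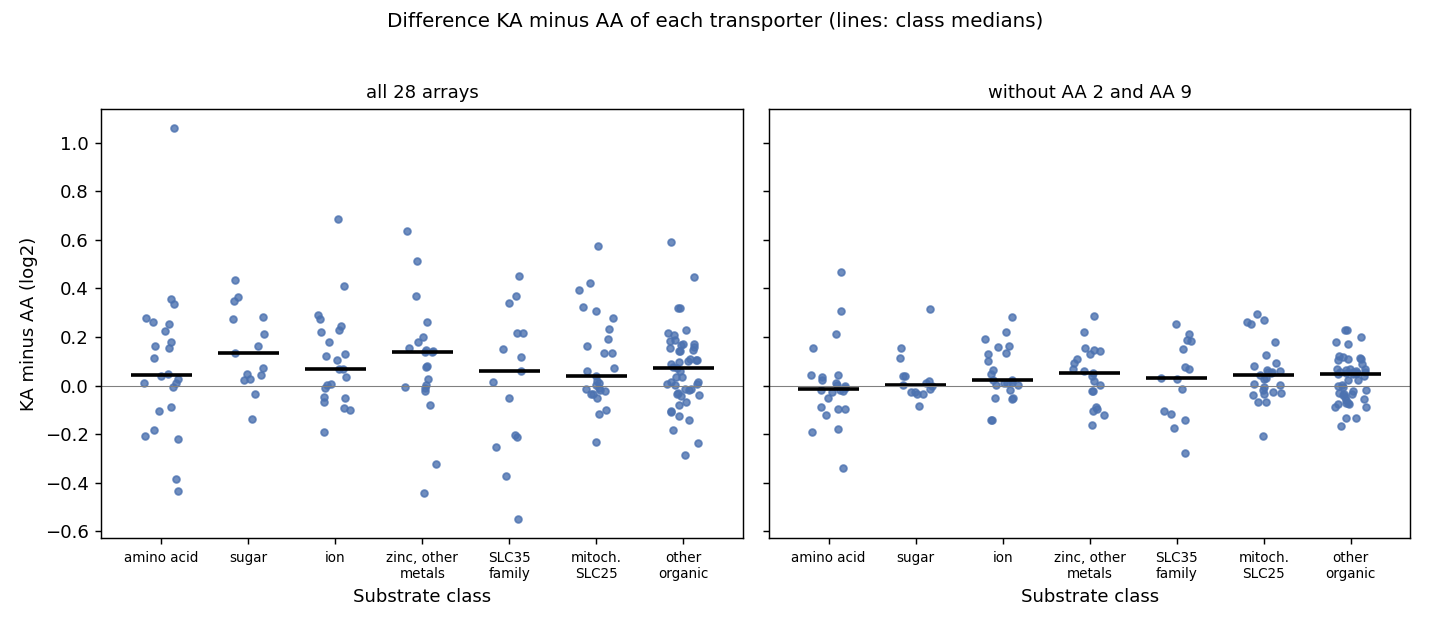
Difference KA minus AA in log2 units (vertical axis) of each SLC gene, 1 point per gene, by substrate class (horizontal axis; the 2 symbols that name no carrier are left out), with all 28 arrays on the left and without AA 2 and AA 9 on the right; black lines are class medians. The class medians lie between 0.04 and 0.14 on the left and between -0.01 and 0.05 on the right.

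KK and AA cows did not overlap in 1 SLC gene, SLC27A5, a bile acid and very long chain acyl-CoA ligase that is dim here, which was lower in KK. It read -0.13, -0.20, -0.22 and -0.17 in KK 1 to KK 4. The 9 other AA cows ran from -0.08 through a median of 0.04 to 0.24, AA 2 and AA 9 both read -0.10, and the KA cows ran from -0.34 through 0.04 to 0.20. Every KK cow lay below every AA cow, while the KA range overlapped both groups. KK minus AA was -0.22 ± 0.08 (SE; limma adjusted p = 0.909), and -0.25 ± 0.08 without AA 2 and AA 9 (adjusted p = 1.000). Among all genes 0.0765% were wholly higher and 0.0874% wholly lower in KK than in AA. No SLC gene separated KA from AA or KK from KA, beside 0% of all genes for KA against AA and, for KK against KA, 0.0218% higher and 0.120% lower.

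Amino acid carriers held both the SLC gene with the smallest p and the one with the largest difference between KA and AA. Of the 24, 3 were higher and 2 lower in KA at an unadjusted p under 0.05, 0 and 0 differed between KK and AA, and the class medians were 0.04 for KA minus AA and 0.01 for KK minus AA, moving to -0.01 and -0.03 without AA 2 and AA 9.

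SLC38A2 (SNAT2), a sodium-coupled carrier of small neutral amino acids such as alanine and glutamine that cells regulate by amino acid supply, had the smallest p of all SLC genes. The bright probe set ran from -0.49 through -0.01 to 0.14 in the 9 other AA cows, with AA 2 at 0.45 and AA 9 at -0.08, and from -0.87 through -0.45 to -0.05 in KA. KK 1 to KK 4 read 0.00, -0.35, 0.01 and -0.10. All 13 KA cows lay below the median of the 9 AA cows, all 4 KK cows lay above the KA median, and the KA and AA ranges overlapped. KA minus AA was -0.38 ± 0.10 (SE; limma adjusted p = 0.121), and -0.34 ± 0.10 without AA 2 and AA 9 (adjusted p = 0.226). The adjusted p was 0.0453 with array weights and 0.0432 without the cow AA 1, where 0.142% and 1.14% of all genes were called lower. With the array number block the difference was -0.32, within the lower numbers -0.45 and within the upper numbers -0.22, or -0.18 there without AA 9. Another probe set of SLC38A2, of intermediate brightness, went the other way: its KA minus AA was 0.48, with AA 2 at -1.41 and AA 9 at -0.71, and the mean of both probe sets gave 0.05.

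SLC38A3 (SNAT3), a glutamine and histidine carrier of the same family, had the largest KA minus AA difference of the 176. KA cows ran from -0.43 through 0.42 to 1.00 and the 9 other AA cows from -0.77 through -0.02 to 0.57, with AA 2 at -2.96 and AA 9 at -3.66. KK 1 read 0.68, and KK 2 to KK 4 read -0.13, -0.22 and -0.11. Of 13 KA cows 12 lay above the median of the 9 AA cows, and the KK cows were split, 1 high and 3 low. The difference was 1.06 ± 0.35 (SE; adjusted p = 0.143) with all arrays and 0.47 ± 0.16 (adjusted p = 0.321) without AA 2 and AA 9. Its 2 further probe sets gave 0.53 (intermediate) and 0.02 (dim).

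SLC7A5 (LAT1), the light chain of the leucine exchanger, ran from -0.50 through 0.14 to 1.19 in the 9 other AA cows and from -1.07 (KA 2) through 0.25 to 1.65 (KA 12) in KA, a 6.61-fold range over the 26 arrays. The KK cows, from KK 1 to KK 4, read 0.23, -0.42, 0.29 and -0.27, inside both ranges, while AA 2 and AA 9 read -2.46 and -1.91, below all others. Its partner SLC3A2, which carries the exchanger to the membrane, read -0.17, -0.37, -0.03 and -0.07 in KK 1 to KK 4, against -0.06, 0.22 and 0.90 (lowest, median, highest) in the 9 other AA cows and -0.25, 0.22 and 0.90 in KA. All 4 KK cows lay below the median of both other groups. KK minus AA was -0.36 ± 0.23 (SE; adjusted p = 0.909), and -0.45 ± 0.18 (adjusted p = 1.000) without AA 2, at -1.14, and AA 9, at 0.71.

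SLC1A5 (ASCT2), the sodium-coupled glutamine exchanger, spanned -0.96 (KA 2) to 0.56 (KA 12) over the 26 arrays, with KK cows between -0.24 and 0.02 and AA 2 and AA 9 at -1.54 and -2.14. SLC7A1 (CAT1), the arginine and lysine carrier, spanned -0.43 (AA 5) to 0.56 (KA 12), with KK cows between -0.18 and 0.39 and AA 2 and AA 9 at -1.89 and -1.04. Without AA 2 and AA 9 SLC1A5 stood at 0.15 ± 0.28 in AA, -0.03 ± 0.44 in KA and -0.08 ± 0.11 in KK (SD; n = 9, 13 and 4), and SLC7A1 at 0.06 ± 0.22, 0.04 ± 0.26 and 0.04 ± 0.24. The sign of KA minus AA for SLC1A5 turned without AA 2 and AA 9, from 0.18 to -0.18 ± 0.15 (SE; adjusted p = 0.735), and it was -0.56 ± 0.15 with the array number block as well (adjusted p = 0.198). The sign of KK minus KA turned with the block: without AA 2 and AA 9 it was -0.05 ± 0.19 (adjusted p = 0.991) and 0.47 ± 0.20 with the block (adjusted p = 0.900). Within the lower numbers without AA 2, where KA 1 and KA 2 are the only KA cows, they were -0.83 and 0.68, and KA minus AA of SLC7A5 was -0.87.

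SLC1A1 (EAAT3), a glutamate and cysteine carrier, and SLC6A14, a broad concentrative carrier of neutral and basic amino acids that is dim here, had the widest SD of the class over the 26 arrays beside SLC7A5 (0.66 and 0.65, against 0.64 for SLC7A5). Both were highest in KA 2, at 2.11 and 2.28. SLC6A14 also read 2.28 in AA 2 and 2.06 in AA 9, so 3 of 28 arrays read above 2. SLC1A1 read -0.44 in AA 2 and 0.45 in AA 9, inside the range of the others. SLC6A20, an imino acid carrier that is dim here, was highest in AA 1 at 0.94 and next in KK 1 at 0.85.

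**Figure D2:**
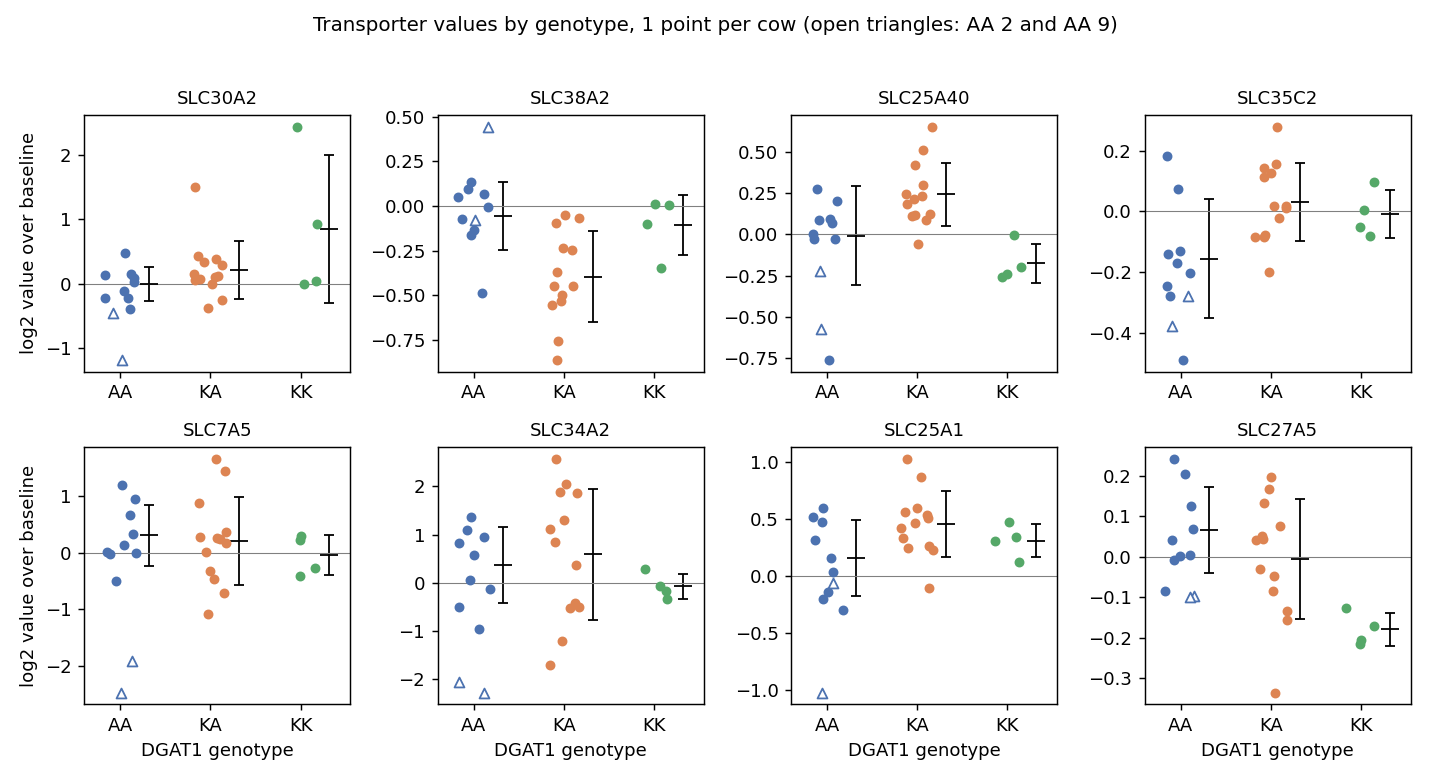
Log2 value over baseline (vertical axis, a scale of its own in each panel) of 8 SLC genes by DGAT1 genotype (horizontal axis), 1 point per cow; open triangles are AA 2 and AA 9, and the black bars give mean and SD without these 2 cows. KA cows sit low in SLC38A2 and high in SLC25A40, KK cows sit below all AA cows in SLC27A5, and 1 KK cow at 2.44 sets the KK mean of SLC30A2.

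Among the 15 sugar carriers 13 were higher in KA than in AA and 13 in KK than in AA, 12 of them in both, with class medians of 0.13 and 0.10, and without AA 2 and AA 9 the counts were 8 and 10 with medians of 0.00 and 0.04. At an unadjusted p under 0.05, 3 were higher in KA (SLC2A8, SLC2A3 and SLC5A10) and none lower, and 0 differed between KK and AA. SLC2A3 (GLUT3), a high-affinity glucose carrier of neurons and white blood cells, was the one that remained without AA 2 and AA 9. It ran from -0.36 through 0.09 to 1.21 (KA 5) in KA and from -0.59 through 0.04 to 0.13 in the 9 other AA cows, with AA 2 at -0.19 and AA 9 at 0.34, and KK 1 to KK 4 read 0.13, 0.03, -0.16 and 0.38. Of 13 KA cows 8 lay above the AA median, and the groups overlapped. The difference KA minus AA was 0.28 ± 0.13 (SE; adjusted p = 0.221), 0.32 ± 0.14 without AA 2 and AA 9 (adjusted p = 0.465), and 0.47 with the array number block as well. The myeloid marker mean was also high in KA 5 (0.81, against a KA median of 0.09), and its part in the SLC2A3 value was not tested.

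SLC2A8 (GLUT8), an intracellular glucose and trehalose carrier, differed by 0.35 ± 0.14 (SE; adjusted p = 0.189) between KA and AA, but by 0.15 ± 0.11 (adjusted p = 0.677) without AA 2, at -1.13, and AA 9, at -0.83, and by -0.06 when the array number block was added. SLC5A1 (SGLT1) and SLC5A9 (SGLT4), sodium-coupled carriers of glucose and of mannose, overlapped across genotypes, and the 26 arrays ran from -0.94 to 0.59 for SLC5A1 and from -0.54 to 0.44 for SLC5A9, both highest in KK 1. In AA 2 and AA 9 they read -1.81 and -1.85, and -2.24 and -2.63. A second SLC5A1 probe set, also intermediate, read -0.18 in AA 2, inside the -1.03 to 0.95 of the other 26, and -1.67 in AA 9, and its KA minus AA was -0.03 against 0.36. SLC2A4 (GLUT4), the insulin-regulated carrier of fat and muscle and the single bright probe set of the class, was the steadiest sugar carrier, at 0.03 ± 0.09 in AA, 0.00 ± 0.09 in KA and 0.04 ± 0.12 in KK (SD; n = 9, 13 and 4), with AA 2 at 0.19 and AA 9 at -0.12.

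The ion class held the gene with the widest range of all 176. SLC34A2 (NaPi2b), of intermediate brightness, ran from -1.71 (KA 9) through 0.85 to 2.57 (KA 11) in KA and from -0.96 through 0.57 to 1.36 in the 9 other AA cows. KK 1 to KK 4 read -0.08, -0.16, 0.29 and -0.35, and AA 2 and AA 9 read -2.28 and -2.07. The 26 arrays thus spanned 19.51-fold, the 13 KA cows fell on both sides of 0, and all 4 KK cows lay near 0, below the median of both other groups. The group means of 0.36 ± 0.79 (9 AA), 0.59 ± 1.36 (13 KA) and -0.07 ± 0.27 (4 KK; SD) had differences that did not pass: without AA 2 and AA 9, KK minus KA was -0.66 ± 0.57 (SE; adjusted p = 0.935) and KK minus AA -0.44 ± 0.60 (adjusted p = 1.000). SLC20A1 (PiT-1), a housekeeping phosphate carrier, ran from -0.51 to 0.56 and read 1.21 in AA 2 and -0.19 in AA 9.

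SLC34A1 (NaPi2a), the kidney phosphate carrier, and SLC12A1 (NKCC2), the kidney sodium potassium chloride carrier, were 2 of the 5 genes below an unadjusted p of 0.05 in KK against AA. SLC34A1 read 0.22, 0.43, 0.01 and -0.10 in KK 1 to KK 4, against -0.52, -0.14 and 0.30 (lowest, median, highest) in the 9 other AA cows; KK minus AA was 0.34 ± 0.16 (SE; adjusted p = 0.909), and 0.25 ± 0.15 without AA 2 and AA 9. A dim probe set of the same gene gave 0.10 and did not track it over the 26 arrays (r = -0.11). SLC12A1, dim, read 0.81 in KK 1 and -0.08, 0.15 and 0.09 in KK 2 to KK 4, against -0.27 to 0.18 in the 9 other AA cows, -0.56 in AA 2 and -0.61 in AA 9, so KK 1 was the highest of the 28. Its KK minus AA was 0.37 ± 0.14 (SE; adjusted p = 0.909), and 0.27 ± 0.12 without AA 2 and AA 9 (adjusted p = 1.000). A second dim probe set of SLC12A1 gave 0.08.

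SLC12A2 (NKCC1), the basolateral chloride loader of secretory epithelia, had group means of -0.21 ± 0.54 in AA, -0.05 ± 0.51 in KA and -0.21 ± 0.16 in KK (SD; n = 9, 13 and 4). A second probe set followed it closely over the 26 arrays (r = 0.92), with AA 2 and AA 9 at 1.68 and 1.71, where the first read 0.59 and 0.67. SLC4A2 (AE2), a chloride bicarbonate exchanger, ran from -0.15 through 0.31 to 1.29 (KA 12) in KA and from -0.44 through 0.18 to 0.69 in the 9 other AA cows, with the KK cows between 0.01 and 0.20. KA minus AA was 0.41 ± 0.17 (SE; adjusted p = 0.191), 0.28 without AA 2 and AA 9, and -0.11 with the array number block as well. Within the lower numbers it was 0.07 and within the upper 0.16.

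Among the 21 carriers of zinc and other metals SLC30A2 (ZnT2), the carrier that loads zinc into secretory vesicles of the mammary gland and without which human milk is low in zinc, had the smallest p of the 176 for both KK minus AA and the slope. It read -0.01, 2.44, 0.93 and 0.04 in KK 1 to KK 4. KA cows ran from -0.38 through 0.13 to 1.5 (KA 3), the 9 other AA cows from -0.39 through 0.03 to 0.47, and AA 2 and AA 9 read -0.46 and -1.19. KK 2 was the highest and KA 3 the next highest of the 28, while KK 1 and KK 4 lay within the AA range. KK minus AA was 1.00 ± 0.32 (SE; adjusted p = 0.909), and 0.85 ± 0.30 without AA 2 and AA 9 (adjusted p = 1.000). The slope was 0.47 ± 0.15 per lysine allele (adjusted p = 0.526), 0.38 ± 0.15 without AA 2 and AA 9. Within the lower numbers, which hold all KK cows, KK minus AA was 0.94.

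SLC11A1 (NRAMP1), the metal carrier of macrophage phagosomes and dim here, read 0.13, 0.17, 0.23 and 0.37 in KK 1 to KK 4 and ran from -0.43 through -0.05 to 0.29 in the 9 other AA cows. All 4 KK cows lay above the medians of AA and of KA (0.06). KK minus AA was 0.28 ± 0.12 (SE; adjusted p = 0.909), with the same difference of 0.28 without AA 2 and AA 9. The highest KK value (KK 4) came with the highest myeloid marker mean of the 26 arrays (0.86), while the other 3 KK cows had myeloid means of -0.18 to -0.10; the part of myeloid cells in the difference was not tested.

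SLC30A1 (ZnT1), the zinc exporter of the plasma membrane, dim here, was the metal carrier with the smallest p for KA against AA. KA cows ran from -0.30 through 0.11 to 0.63 and the 9 other AA cows from -0.47 through -0.09 to 0.00, with 11 of 13 KA cows above the AA median. The KK cows, from KK 1 to KK 4, read -0.18, 0.14, -0.40 and 0.11. The difference KA minus AA was 0.26 ± 0.09 (SE; adjusted p = 0.147), and 0.29 ± 0.09 without AA 2 and AA 9 (adjusted p = 0.296). It was 0.31 within the lower numbers and 0.12 within the upper. SLC39A1 (ZIP1), a zinc importer, read -0.13, -0.22, 0.08 and 0.06 in KK 1 to KK 4, all below the medians of KA (0.33) and of the 9 other AA cows (0.13), with KK minus KA at -0.31 ± 0.14 (SE; adjusted p = 1.000).

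SLC39A8 (ZIP8), a zinc, manganese and cadmium importer, SLC31A2 (CTR2), a copper carrier of endosomes, and SLC39A12 (ZIP12), a zinc importer best known from brain, had the class's lowest values in AA 2 and AA 9 or wide ranges. SLC39A8 ran from -0.53 to 0.54 over the 26 arrays and read -1.94 in AA 2 and -3.29 in AA 9. SLC31A2 ran from -0.66 to 0.66 and read -3.0 and -3.09. SLC39A12 ran from -0.71 (AA 3) to 1.06 (AA 7) and was inside its range in AA 2 and AA 9. SLC30A5 (ZnT5), which supplies zinc to the secretory pathway, read 0.18, -0.18, 0.41 and -0.12 in KK 1 to KK 4, against -0.33 to 0.39 in the 9 other AA cows and -0.25 to 0.04 in KA.

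The SLC35 family, which brings nucleotide sugars into the Golgi and endoplasmic reticulum, held 4 genes higher and 4 lower in KA than in AA at an unadjusted p under 0.05, of 15, with a class median of 0.06. Without AA 2 and AA 9 it was 3 higher and 1 lower. SLC35C2, a Golgi member tied to fucosylation of Notch, ran from -0.20 through 0.02 to 0.28 in KA and from -0.49 through -0.17 to 0.18 in the 9 other AA cows, with AA 2 at -0.38 and AA 9 at -0.28. KK 1 to KK 4 read 0.10, 0.01, -0.05 and -0.08. Of 13 KA cows 12, and all 4 KK cows, lay above the median of the 9 AA cows, and the groups overlapped. KA minus AA was 0.22 ± 0.07 (SE; adjusted p = 0.139), 0.19 ± 0.07 without AA 2 and AA 9 (adjusted p = 0.371), and 0.15 and 0.24 within the lower and the upper numbers. Without the cow AA 1, which had the highest AA value, the adjusted p was 0.0432, where 0.928% of all genes were called higher.

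SLC35A5, an orphan member, went the other way, at -0.55 ± 0.18 for KA minus AA (SE; adjusted p = 0.142) and -0.28 ± 0.11 (adjusted p = 0.427) without AA 2, at 1.76, and AA 9, at 1.45. Its KK cows read -0.21, -0.10, 0.31 and 0.02. The 3 other probe sets of SLC35A5 gave -0.01, 0.30 and 0.06, and over the 26 arrays none followed it (r of 0.04, -0.34 and 0.28), so the direction rests on 1 probe set. SLC35A4 ran from -0.05 through 0.41 to 0.87 in KA and from -0.09 through 0.10 to 0.48 in the 9 other AA cows. Its KA minus AA was 0.34 ± 0.13 (SE; adjusted p = 0.167) and 0.26 ± 0.10 without AA 2 and AA 9, but 0.07 with the array number block as well.

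SLC35B1, the ATP carrier of the endoplasmic reticulum, and SLC35C1, the Golgi GDP-fucose carrier, had KA minus AA differences of 0.37 ± 0.17 and 0.45 ± 0.20 (SE; adjusted p = 0.214 and 0.205), and of 0.15 and 0.19 without AA 2 and AA 9. SLC35A1 and SLC35A3, the Golgi carriers of CMP-sialic acid and of UDP-N-acetylglucosamine, were among 4 of 15 members that were highest in both AA 2 and AA 9, at 1.21 and 1.01 for SLC35A1 and 1.34 and 0.52 for SLC35A3. SLC35B1, SLC35C1 and SLC35D2 were lowest there, down to -1.72 for SLC35B1 and -1.83 for SLC35D2 in AA 9. The family thus pointed both ways in the 2 arrays, and its mean there was 0.05 and -0.01.

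Mitochondrial SLC25 carriers gave 4 higher and 1 lower of 27 for KA against AA at an unadjusted p under 0.05 and 0 for KK against AA, with class medians of 0.04 and 0.01 that stayed at 0.04 and 0.01 without AA 2 and AA 9. SLC25A40, which carries glutathione into mitochondria, ran from -0.06 through 0.21 to 0.66 in KA and from -0.76 (AA 11) through 0.07 to 0.28 in the 9 other AA cows, with AA 2 at -0.58 and AA 9 at -0.22. The KK cows, from KK 1 to KK 4, read -0.26, -0.20, -0.24 and 0.00. All 4 KK cows lay below the median of both other groups and 12 of 13 KA cows above the median of the 9 AA cows. The difference KA minus AA was 0.32 ± 0.10 (SE; adjusted p = 0.139) and 0.25 ± 0.10 without AA 2 and AA 9 (adjusted p = 0.394). KK minus KA was -0.42 ± 0.14 (adjusted p = 1.000), and -0.42 ± 0.13 without them (adjusted p = 0.569). KA minus AA was 0.18 within the lower and 0.56 within the upper numbers.

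SLC25A1, the citrate carrier that supplies acetyl groups for fatty acid synthesis, ran from -0.10 through 0.46 to 1.03 (KA 12) in KA and from -0.30 through 0.16 to 0.60 in the 9 other AA cows, with AA 2 at -1.02 and AA 9 at -0.06. KK 1 to KK 4 read 0.35, 0.47, 0.31 and 0.12. Of 13 KA cows 12 lay above the median of the 9 AA cows. The difference KA minus AA was 0.42 ± 0.14 (SE; adjusted p = 0.143) and 0.30 ± 0.12 without AA 2 and AA 9 (adjusted p = 0.427). It was 0.08 with the array number block as well, 0.07 within the lower numbers without AA 2 and 0.09 within the upper numbers without AA 9.

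SLC25A38, the glycine carrier needed for heme synthesis, had its KA minus AA at -0.23 ± 0.08 (SE; adjusted p = 0.143). Its 9 other AA cows ran from 0.03 through 0.18 to 0.30, AA 2 and AA 9 both read 0.30, KA ran from -0.42 through -0.04 to 0.50, and KK 1 to KK 4 read 0.05, 0.23, 0.30 and 0.01. Every AA cow was above 0 and 11 of 13 KA cows lay below the median of the 9 AA cows. Without AA 2 and AA 9 it was -0.21 ± 0.08, and it was -0.03 within the lower and -0.32 within the upper numbers. SLC25A29, a mitochondrial carrier of basic amino acids, read -0.05 in KK 1 and 0.45, 0.38 and 0.44 in KK 2 to KK 4.

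SLC25A4 (ANT1), the ATP and ADP exchanger of heart and muscle, and SLC25A21, an oxodicarboxylate carrier of lysine breakdown, were low in AA 2 and AA 9, at -1.60 and -1.65, and at -2.04 and -3.18. Over the 26 arrays SLC25A4 ran from -0.47 to 0.72 (KK 1) and SLC25A21 from -0.84 (KA 2) to 0.82 (KA 7). With AA 2 and AA 9 included, group means of the carnitine carrier SLC25A20 were 0.01, 0.02 and -0.03 (AA, KA and KK). Those of the oxoglutarate carrier SLC25A11 were -0.07, -0.01 and -0.05. Another intermediate probe set of each read otherwise: KA minus AA was 0.30 for SLC25A11 (unadjusted p = 0.00802, limma), with AA 2 at -1.02, and -0.24 for SLC25A20 (unadjusted p = 0.194), with AA 2 at 1.21.

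The 49 carriers of other organic substrates gave 6 higher and 1 lower for KA against AA at an unadjusted p under 0.05, and 0 and 1 without AA 2 and AA 9, with class medians of 0.07 and 0.05. SLC16A1 (MCT1), the lactate and ketone body carrier, had the widest SD of the class over the 26 arrays (0.55), from -1.23 (KA 2) to 0.84 (KA 1). The KK cows, from KK 1 to KK 4, read 0.44, 0.23, -0.22 and -0.43, and AA 2 and AA 9 read -2.55 and -3.12. SLC29A1 (ENT1), the nucleoside carrier, had a KA minus AA of 0.32 ± 0.14 (SE; adjusted p = 0.202) with all arrays and 0.00 with the block and without AA 2 and AA 9. SLC22A5 (OCTN2), the carnitine importer, stood at -0.17 ± 0.33, -0.30 ± 0.49 and -0.23 ± 0.33 in AA, KA and KK (SD; n = 9, 13 and 4), and differed by less than these spreads.

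SLC44A2, a choline carrier with a bright probe set, read -0.02, -0.18, 0.27 and 0.05 in KK 1 to KK 4, ran from -0.06 through 0.42 to 0.94 in KA and from -0.03 through 0.26 to 0.78 in the 9 other AA cows. All 4 KK cows lay below the KA median. KK minus KA was -0.45 ± 0.24 (SE; adjusted p = 1.000), -0.45 ± 0.16 without AA 2, at -1.33, and AA 9, at 0.83 (adjusted p = 0.637), and -0.23 with the block as well. Its sign in AA 9 turned under quantile normalization. SLC46A2 and SLC44A4 owed their spread to single cows: SLC46A2 was 1.86 in KA 2, with AA 2 at 1.81 and AA 9 at 1.35, and SLC44A4, a carrier of choline and thiamine pyrophosphate, was 2.28 in KA 5, with AA 2 and AA 9 at 0.85 and 0.93. Neither of the symbols that name no carrier came near the threshold. With AA 2 and AA 9 included, SLC4A1AP had group means of 0.03, -0.02 and -0.11 in AA, KA and KK, and SLC7A6OS -0.18, -0.02 and -0.17. For SLC4A1AP AA 2 lay 0.99 and AA 9 0.36 above the median of the other 26 arrays. SLC7A6OS read -1.05 in AA 2 and 0.23 in AA 9.

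Array by array, AA 2 and AA 9 lay outside the other cows in many SLC genes. AA 2 read below all 26 others in 75 of the 176 genes (42.6%, against 30.2% of all genes) and above them in 28 (15.9%, against 30.5%), and AA 9 below in 69 (39.2%, against 22.7%) and above in 21 (11.9%, against 33.0%). In 55 of the 176 (31.2%, against 16.3% of all genes) both cows read below all 26 others, and in 11 (6.25%, against 22.4%) both read above. Both were below in 11 of 23 ion carriers, 7 of 15 sugar carriers, 9 of 24 amino acid carriers and 7 of 21 metal carriers. The same held in 3 of 15 SLC35, 6 of 27 SLC25 and 12 of 49 other organic carriers. These counts take 1 probe set per gene, and other probe sets could read otherwise. SLC25A5 was counted as below, but its other bright probe set read above all others, at 1.24 and 1.45 against a highest of 0.88. The other probe sets of SLC9A3 lay inside the range, while that of SLC6A8 was also below in both. None of the amino acid, sugar or ion carriers was above in both. The 11 above were SLC35A1, SLC35A3, SLC35A5, SLC35F6, SLC39A6, SLC39A11, SLC25A51, SLC13A2, SLC15A4, SLC27A1 and SLC66A3. Another probe set of SLC39A6 was also above in both, while the other SLC35A5 probe sets were inside the range in AA 2. SLC27A1 was above by little, at 0.29 in both cows against a highest of 0.26. Its dim probe set read -0.41 in AA 2, below the other 26, and 0.85 in AA 9, above them.

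These counts depend on the scaling. After quantile normalization, which forces all arrays onto 1 distribution, both cows were below in 8 SLC genes (4.55%, against 2.46% of all genes) and above in 2 (1.14%, against 2.92%). The 8 were SLC2A8, SLC5A9, SLC31A2, SLC39A7, SLC39A8, SLC25A4, SLC66A2 and SLC6A8, the last of these the creatine carrier, and the 2 were SLC39A6 and SLC35A5. Among the 66 SLC genes named by rule, the sign of AA 9 against the median of the others turned in 9 (SLC1A1, SLC20A1, SLC22A5, SLC30A5, SLC35A4, SLC39A1, SLC39A12, SLC39A13 and SLC44A2) and that of AA 2 in SLC22A5. The secretory epithelium markers were low and the fibroblast markers high in the same 2 arrays, and their part in the SLC values was not tested.

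**Figure D3:**
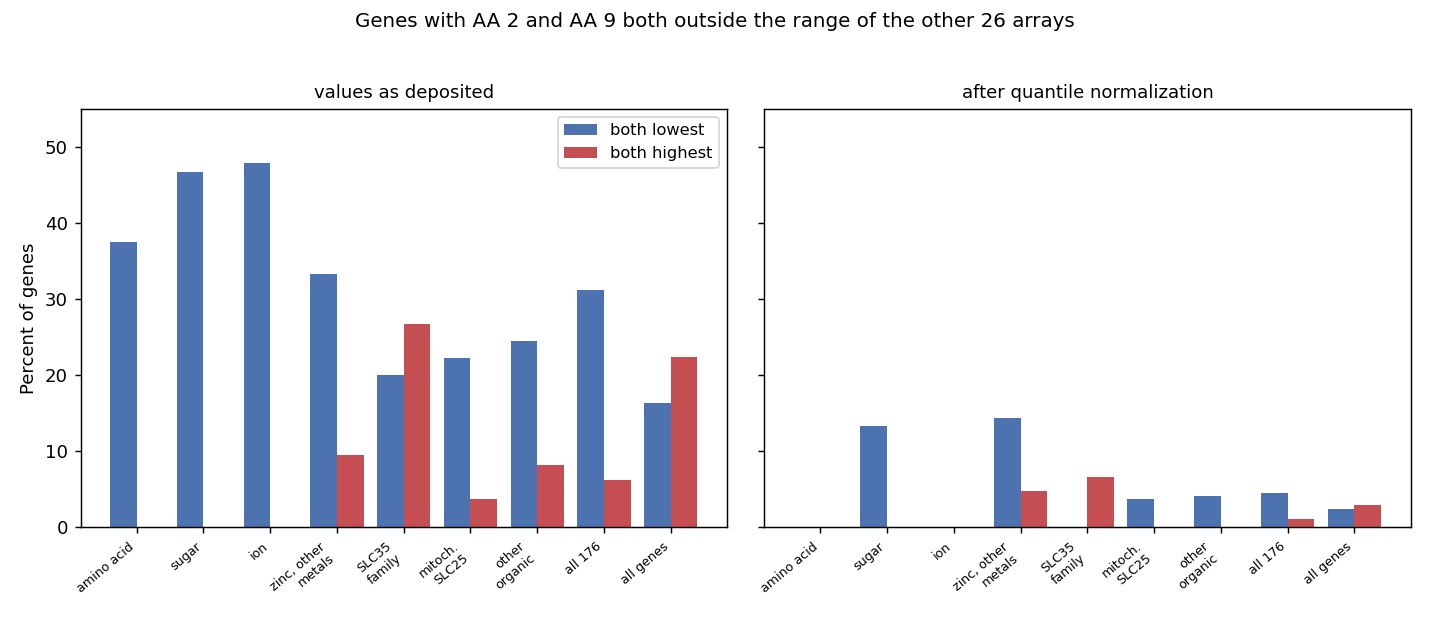
Percent of genes (vertical axis) in which AA 2 and AA 9 both lie below (blue) or both lie above (red) the range of the other 26 arrays, by substrate class, for all 176 SLC genes and for all 9155 genes (horizontal axis), with the values as deposited on the left and after quantile normalization on the right. As deposited, 31.2% of SLC genes and 16.3% of all genes are lowest in both; after quantile normalization it is 4.55% and 2.46%.

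**Figure D4:**
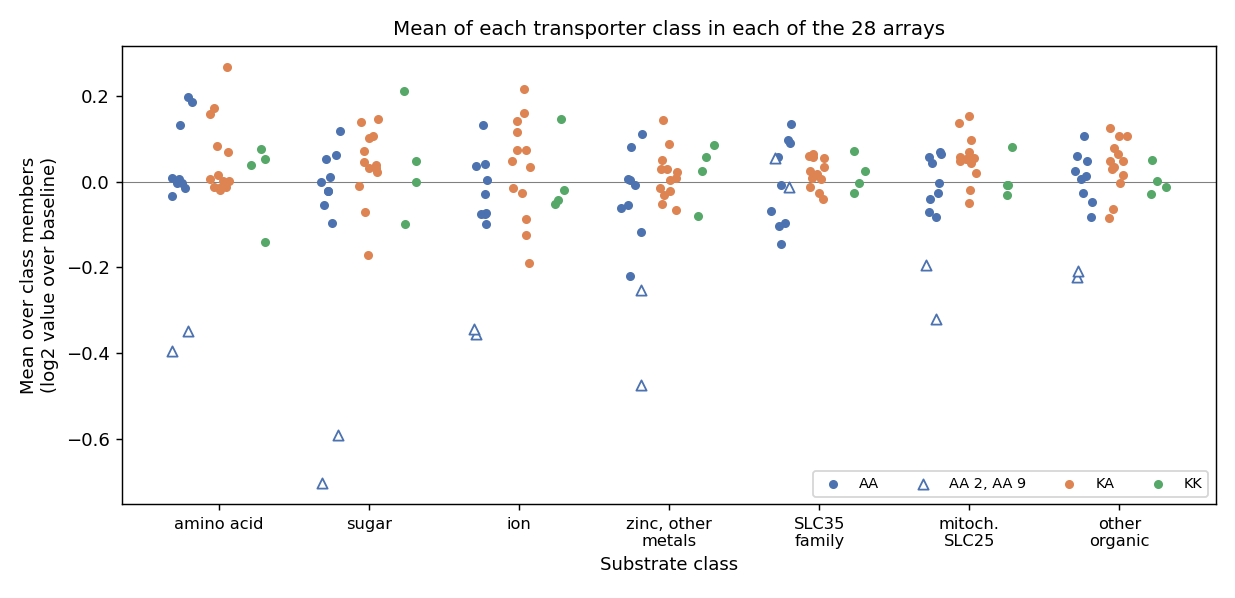
Mean log2 value over baseline of the members of each substrate class (vertical axis) in each array, 1 point per cow, by class (horizontal axis) and genotype (colour); open triangles are AA 2 and AA 9. The sugar class mean was -0.70 and -0.59 in AA 2 and AA 9 against -0.17 to 0.21 in the other 26, while the SLC35 family mean was 0.05 and -0.01.

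Among the other 26 arrays KA 2 had the largest SD over the 176 genes (0.46), with 8 genes more than 2-fold off baseline. It was lowest of the 26 in 20 SLC genes (11.4%, against 5.31% of all genes), among them SLC7A5 (-1.07), SLC1A5 (-0.96) and SLC16A1 (-1.23), and highest in 11 (6.25%, against 7.93%), among them SLC6A14 (2.28), SLC1A1 (2.11), SLC46A2 (1.86) and SLC12A2 (1.04). KA 12 was highest in 16 (9.09%, against 3.78%), among them SLC7A5 (1.65), SLC4A2 (1.29), SLC25A1 (1.03), SLC44A2 (0.94), SLC29A1 (0.84), SLC1A5 (0.56) and SLC7A1 (0.56). KA 1 was highest in 23 (13.1%, against 7.11%), with SLC38A3 (1.00) and SLC16A1 (0.84) among them.

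By array number, the AA and KA groups can be compared within the lower and within the upper numbers. Within the upper numbers (3 AA and 11 KA cows) 5 SLC genes passed an adjusted p of 0.05 as higher in KA (SLC38A3, SLC5A1, SLC5A11, SLC25A40 and SLC23A2) and 7 as lower (SLC6A14, SLC35A5, SLC39A6, SLC35A1, SLC35F6, SLC22A17 and SLC15A4), or 12 of 176, beside 2.73% of all genes higher and 6.54% lower (limma). Without AA 9, 1 of the 3 AA cows there, none passed, beside 0.0437% of genes higher and 0% lower, and 5 SLC genes were higher and 15 lower at an unadjusted p under 0.05, beside 5.28% and 8.24%. Within the lower numbers (8 AA and 2 KA cows) none passed, and 0 SLC genes were higher and 1 lower at an unadjusted p under 0.05, beside 1.13% and 0.470%. With the block and without AA 2 and AA 9, 5 were higher and 6 lower, beside 3.91% and 3.64% of all genes.

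Pairs of carriers from a fixed list, chosen with earlier results of these data known, were set against each other over the 26 arrays. Of 10 listed pairs 7 were measured, and p-values are two-sided permutation values adjusted over the 7. SLC7A5 rose with SLC7A1 (r = 0.68, adjusted p = 0.000945; rho = 0.60, adjusted p = 0.00411), and without KA 2 and KA 12, the cows farthest from its median, r was 0.51. SLC7A5 rose with SLC1A5 (r = 0.65, adjusted p = 0.000945; rho = 0.59, adjusted p = 0.00411), with r = 0.48 without the same cows. SLC3A2 rose with SLC7A5 (r = 0.56, adjusted p = 0.00674; rho = 0.44, adjusted p = 0.0478), but r was 0.34 without AA 10 and KA 12, so this relation leaned on those cows. Its rho stopped passing after quantile normalization (0.37, adjusted p = 0.111) and over all 28 arrays (0.40, adjusted p = 0.0656), while r still passed (0.53 in both, adjusted p = 0.0128 and 0.0121). SLC39A14 (ZIP14), a zinc and manganese importer of the plasma membrane, rose with SLC7A5 (r = 0.48, adjusted p = 0.0242; rho = 0.60, adjusted p = 0.00411), with r = 0.50 without KA 9 and AA 11.

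Within the lower and the upper array numbers (13 arrays each) r was 0.56 and 0.82 for SLC7A5 with SLC7A1, 0.84 and 0.42 with SLC1A5, 0.23 and 0.66 with SLC3A2, and 0.39 and 0.39 with SLC39A14. The permutation p adjusted over the 7 pairs was 0.0984 and 0.00616 for SLC7A1, 0.00196 and 0.325 for SLC1A5, 0.526 and 0.0495 for SLC3A2, and 0.264 and 0.325 for SLC39A14. Each pair was positive in both sets of arrays, but it passed in only 1 of them for the first 3 pairs and in neither for SLC39A14. The difference between lower and upper numbers was not tested.

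The other 3 pairs showed no relation that passed over the 26 arrays: r was 0.21 for SLC7A5 with SLC38A2 (adjusted p = 0.432, permutation), 0.10 for SLC20A1 with SLC34A2 (adjusted p = 0.749) and 0.02 for SLC35B1 with SLC35A3 (adjusted p = 0.918). Within the lower numbers alone SLC7A5 with SLC38A2 passed (r = 0.67, permutation p adjusted over the 7 pairs 0.0470). Over all 28 arrays the last pair read -0.54 with AA 2 and AA 9 in.

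**Figure D5:**
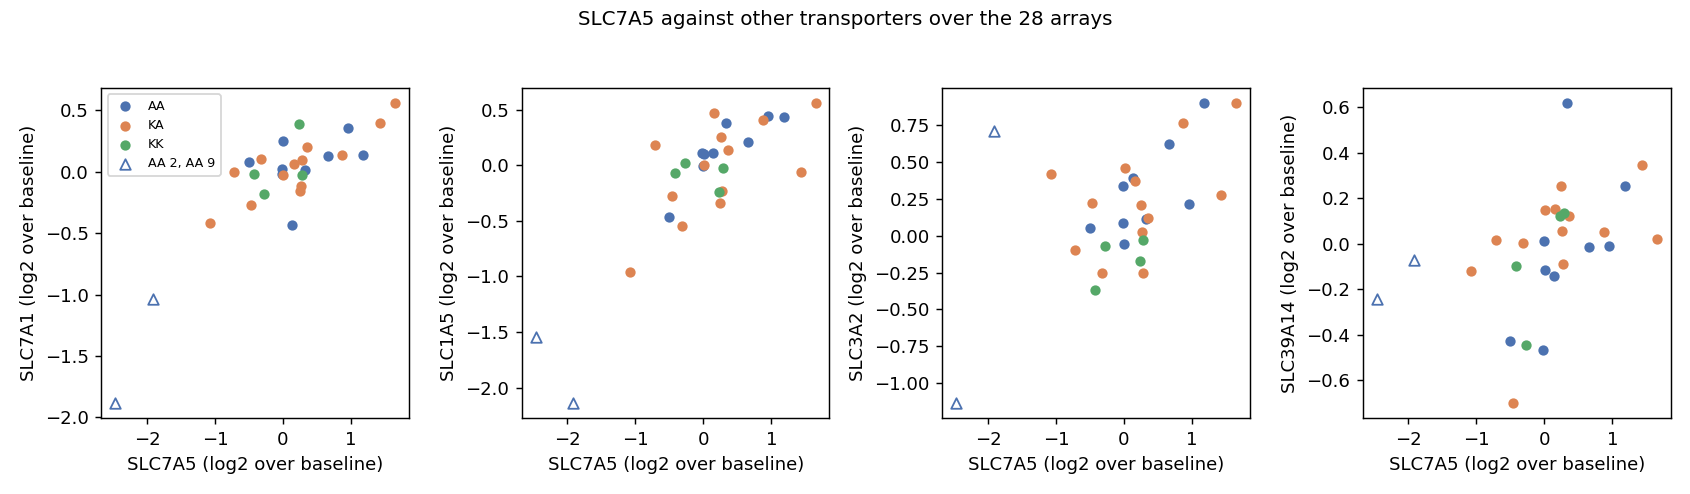
Log2 value over baseline of SLC7A1, SLC1A5, SLC3A2 and SLC39A14 (vertical axes) against that of SLC7A5 (horizontal axes), 1 point per cow coloured by genotype; open triangles are AA 2 and AA 9, which were left out of the correlations. Over the other 26 arrays r was 0.68, 0.65, 0.56 and 0.48.

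Transport proteins outside the SLC symbols were read from the same fit. Of a list of 42 pumps, channels and ABC carriers 31 were measured and 0 passed an adjusted p of 0.05 in any comparison. For KA against AA 5 were higher (AQP4, ATP2B4, ORAI1, SCNN1A and MPC2) and 2 lower (ABCD3 and ATP1B1) at an unadjusted p under 0.05, beside 10.1% and 11.4% of all genes. Without AA 2 and AA 9 it was 2 in all, beside 4.90% of all genes higher and 3.62% lower. ORAI1, the calcium channel opened when stores empty, had the largest difference (1.01 ± 0.35, SE; limma adjusted p = 0.147; 0.49 ± 0.22 without AA 2 and AA 9, adjusted p = 0.471), with AA 2 and AA 9 at -3.22 and -2.33 against -0.87 to 1.42 in the other 26. For ATP1B1, a subunit of the sodium pump, KA minus AA was -0.58 ± 0.21 (adjusted p = 0.154; -0.30 ± 0.16 without AA 2 and AA 9, adjusted p = 0.553), with AA 2 and AA 9 at 1.62 and 1.64 against -0.81 to 0.48.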

How the data were processed

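Mammary biopsies of 28 cows were hybridised to 1 array each. Each deposited value is on a log2 scale with a baseline taken away for its probe set. The submitters' processing notes name RMA and GCRMA without saying which was used. Of 24128 probe sets 112 were controls, and 24016 were tested. Symbols came from the platform annotation (13292 probe sets with 1 symbol, 86 with several, 10638 with none), and 13263 of those with 1 symbol matched a RefSeq gene table.

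Brightness classes were read from the rounding steps of the values (tolerance 0.20 steps, in at least 75% of values; log2 under 4 dim, 8 or more bright). A gene with several probe sets is given by its brightest, then plainest, then first by identifier. A group-means model and a slope per lysine allele were fitted with limma 3.58.1 in R 4.3.3; p-values were adjusted by Benjamini-Hochberg over all 24016, at 0.05; the fit was tested on simulated data. Replicate numbers follow accession order and pair nothing. The labels call the samples separate cows. The number of arrays limits the precision. Relations used 100000 permutations.

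The 66 genes named by rule are, per comparison, the 10 with the smallest p, per class the 3 with the largest SD over 26 arrays and the 2 farthest from the rest in AA 2 and AA 9, and carriers known from the mammary gland (37 listed, 30 measured). Other genes appear only in counts or lists, or were chosen after their values were seen. The members and lists were chosen with earlier results of these data known. Alternatives were quantile normalization, centring, array weights, array number as a block or within lower and upper numbers, no dim probe sets, the mean over probe sets, only the groups compared, and each array left out; array number with AA 2 or AA 9 left out was chosen after seeing the data.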

Additional observations from a re-analysis of the deposited data

Results flagged for a closer look

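In the 4 KK cows, the array farthest from the other 3 was set against Dixon's 95% critical value for 4 samples in the 66 SLC genes named by rule, and 2 passed. SLC38A3 read 0.68 in KK 1 against -0.22 to -0.11 in the other 3, a gap of 0.878 of the range. SLC25A29 read -0.05 in KK 1 against 0.38 to 0.45, a gap of 0.861 of the range. Chance alone passes about 1 in 20 such groups, and 2 of 66 is not above that rate. AA and KA hold more than 10 cows and were not tested in this way.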

How the results depend on the processing

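No SLC gene passed an adjusted p of 0.05 (limma) under the settings run, with these exceptions for KA minus AA: array weights gave 1 (SLC38A2), the upper array numbers gave 12, and leaving out 1 array gave 0 to 2, with 2 (SLC38A2 and SLC35C2) without AA 1. The upper numbers hold no KK cow, so the slope there is the KA minus AA test itself, with the same 12. Of all genes 0.197% were called higher and 0.142% lower with array weights. Those shares were 2.73% and 6.54% in the upper numbers, and 0.928% and 1.14% without AA 1. At an unadjusted p under 0.05 KA minus AA gave 38 of the 176 SLC genes, but 22 after quantile normalization, 13 without AA 2 and AA 9, 11 with the array number block as well, 1 within the lower numbers, 6 there without AA 2 and 20 within the upper numbers without AA 9. The 9155 genes gave 926 higher and 1044 lower, but 694 and 752 after quantile normalization, and 449 and 331 without AA 2 and AA 9. With the block as well they gave 358 and 333, and within the lower numbers 103 and 43. Within the lower numbers without AA 2 they gave 246 and 110, and within the upper numbers without AA 9 483 and 754. The slope gave 18, but 5 without AA 2 and AA 9, 4 with the block as well, 3 within the lower numbers and 5 there without AA 2. Within the upper numbers, where it is the same as KA minus AA, it gave 53, with a median of 0.13. All genes gave 392 higher and 481 lower for the slope, but 150 and 144 without AA 2 and AA 9, and 148 and 146 with the block as well. Within the lower numbers they gave 95 and 68, there without AA 2 157 and 106, and within the upper numbers 1176 and 2104. KK minus AA gave 5, but 8 with array weights, 3 within the lower numbers and 2 without dim probe sets. Its counts over all genes were 167 higher and 169 lower, 243 and 258 with array weights, and 73 and 62 within the lower numbers. Without dim probe sets they were 123 and 152 of 7933. KK minus KA gave 5, but 10 after quantile normalization, 10 without AA 2 and AA 9, and 13 with array weights. It gave 1 within the lower numbers, 8 with only the groups compared and 3 with the mean over probe sets. All genes gave 104 higher and 116 lower for KK minus KA, but 261 and 265 after quantile normalization. Without AA 2 and AA 9 they gave 255 and 264, and with array weights 369 and 355. Within the lower numbers they gave 26 and 68, with only the groups compared 233 and 261. With the mean over probe sets they gave 96 and 107. With 1 array left out the SLC counts ran from 18 (without AA 2) to 48 (without AA 1) for KA minus AA, 7 (AA 9) to 27 (AA 1) for the slope, 3 (KK 1) to 11 (AA 1) for KK minus AA and 2 (KK 3) to 8 (AA 2 or KK 4) for KK minus KA. The SLC medians ran from 0.05 to 0.09, 0.02 to 0.05, 0.02 to 0.06 and -0.05 to -0.01. Without AA 1 the shares of all genes for KA minus AA were 14.1% higher and 16.6% lower. No other end of these ranges has all genes beside it here, so the ranges show nothing particular to SLC genes.

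Within the lower numbers r was 0.23 for SLC3A2 with SLC7A5, 0.56 for SLC7A5 with SLC7A1, 0.67 for SLC7A5 with SLC38A2, which passed there alone, and 0.39 for SLC39A14 with SLC7A5. Within the upper numbers it was 0.42 for SLC7A5 with SLC1A5 and 0.39 for SLC39A14 with SLC7A5. SLC35B1 with SLC35A3 turned to -0.54 over all 28 arrays. AA 2 and AA 9 were both below the others in 8 SLC genes and both above in 2 after quantile normalization. Where a setting uses fewer arrays the count also has less to rest on; otherwise the cause was not tested. No paired analysis was possible because the replicate numbers only follow accession order. The 4 KK cows, all in the lower numbers, and the 32 dim genes limit what can be seen.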
